A study of Mus musculus with 12 samples.

Results

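The 10 genes described here are *Atf4*, *Trib3*, *Chac1*, *Asns*, *Atf3*, *Ddit3*, *Hspa5*, *Ddit4*, *Txnip* and *Ass1*. They were taken by gene name from the 19336 named loci of the count table, and all 10 passed the filter on low counts. *Ass1* and *Txnip* were chosen by their measured levels, higher with DAPT in these same libraries, so their DAPT values are given as a description, with no test. The other 8 are genes of the amino acid and unfolded protein stress responses, set beside them to ask whether DAPT came with a stress response. Cultures were made from the hippocampus of wild-type (WT) mouse pups at postnatal day 4 and kept for 8 d. They were then given vehicle or 20 µM DAPT overnight, and the next day vehicle or 20 nM sErbB4 for 4 h. DAPT inhibits γ-secretase, a protease that cuts Nrg1, Notch and other proteins within the membrane, and sErbB4 is the soluble ectodomain of ErbB4, an Nrg1 receptor. The 4 groups are vehicle, sErbB4, DAPT and DAPT + sErbB4, with 3 libraries each. All cultures were WT, each library pooled the cells of a whole culture, and the study gives separate platings as its replicates.

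Cells that run short of amino acids, or whose endoplasmic reticulum (ER) holds unfolded protein, phosphorylate the translation factor eIF2α through kinases such as GCN2 (*Eif2ak4*) and PERK (*Eif2ak3*). General translation then slows while the mRNA of *Atf4* is translated better. The ATF4 protein activates genes for amino acid synthesis, amino acid import and tRNA charging, and genes of feedback and cell death such as *Trib3*, *Chac1* and *Ddit3*, which encodes CHOP. ER chaperones such as BiP, the product of *Hspa5*, are induced mainly by ATF6 and XBP1, the other branches of the unfolded protein response. Much of the control of ATF4 acts on translation, which RNA levels do not measure.

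The control elements of these branches are short DNA motifs, shown here because the branches are named by the factors that bind them, although 5 of the 10 genes held none of the 3 searched. The C/EBP-ATF response element (CARE), searched as TGATGNAA on both strands, lay in the 250 bases before the RefSeq start of 3 of the 10 genes, *Atf3*, *Chac1* and *Asns*, and in 3.452% of 32851 such windows over all genes (RefSeq, GRCm38.p6). The matches of *Atf3* and *Asns* lie inside the gene positions given below (GENCODE M21), which start upstream of the RefSeq starts used here. Of 36 genes on the ATF4 target lists used below with a window, 9 held a CARE match. The sites of the 3 genes and those of *Pycr1* and *Nupr1*, listed ATF4 targets, are written on the strand that reads TGATGNAA, with the motif in capitals. They lie at chr1:191183428-191183451 (plus strand), chr2:119351041-119351064 (minus strand), chr6:7693217-7693240 (minus strand), chr11:120643836-120643859 (minus strand) and chr7:126625565-126625588 (plus strand).
Atf3: ggacttggTGATGCAAgtgcgaga
Chac1: ggcaggagTGATGCAAcggcaggg
Asns: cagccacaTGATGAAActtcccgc
Pycr1: cctgtgtaTGATGCAAtgcacaag
Nupr1: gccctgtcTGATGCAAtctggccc

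The promoter of *Chac1*, the one member called lower in both DAPT comparisons below, is shown from the start of the window to the first annotated exon (chr2:119350992-119351228, plus strand). Its CARE is in capitals and reads in the reverse direction.
Chac1: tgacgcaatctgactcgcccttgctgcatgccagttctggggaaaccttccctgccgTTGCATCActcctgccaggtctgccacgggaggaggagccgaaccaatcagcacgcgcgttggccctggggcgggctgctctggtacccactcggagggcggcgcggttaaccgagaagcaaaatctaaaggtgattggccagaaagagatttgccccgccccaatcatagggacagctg

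The ER stress response element (ERSE), searched as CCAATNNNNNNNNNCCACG on both strands, was in the window of *Hspa5* and in 0.1126% of all windows. It was in 8 of 21 windows of listed ER chaperone and sensor genes and in none of the 36 of ATF4 target genes. A stretch of 30 bases around the *Hspa5* site, which also lies inside the gene position given below, is at chr2:34772020-34772049 (plus strand), with the motif in capitals.
Hspa5: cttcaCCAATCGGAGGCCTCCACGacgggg

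*Txnip*, which responds to glucose in many cells, held a carbohydrate response element (ChoRE), searched as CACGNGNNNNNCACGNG on both strands and found in 0.04566% of all windows. The 250 bases before its start (chr3:96557707-96557956, plus strand) are shown with the motif in capitals. None of the 10 genes held more than 1 of the 3 motifs, so no matches overlapped. A match describes the sequence and does not show that a factor was bound in these cultures.
Txnip: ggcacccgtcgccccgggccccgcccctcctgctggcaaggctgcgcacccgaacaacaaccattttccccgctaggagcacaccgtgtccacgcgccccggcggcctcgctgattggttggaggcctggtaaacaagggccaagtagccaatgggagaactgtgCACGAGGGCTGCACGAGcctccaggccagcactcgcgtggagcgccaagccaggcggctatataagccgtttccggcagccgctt

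Levels are CPM, counts per 1000000 on named loci after TMM scaling, as mean ± SD of 3 libraries. They are compared between groups, not between genes. Named loci held 18.7 to 30.8 per library in units of 1000000 counts, of which the ribosomal RNA precursor *Rn45s* took 31.4 to 44.6%, and a count of 3 corresponded to 0.0958 to 0.169 CPM. sErbB4 replicate 1 and vehicle replicate 3 stood apart from the other libraries on the second principal component (47.8 and 30.2, where the others ranged from -16.7 to 0.926). Differences were tested with edgeR over 15656 genes with quasi-likelihood F tests. A call needed a fold change (FC) above 1.25 either way together with an adjusted p below 0.05. The average DAPT effect is the mean of the log2 FC of DAPT against vehicle and that of DAPT + sErbB4 against sErbB4. All 9 neuronal markers checked were detected in every group, as were all 9 astrocyte markers. Detection here means any count in a group, which the markers of every other cell type checked also met, so it does not set these cell types apart.

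*Atf4* RNA, *Trib3* and *Chac1* were lower with DAPT, and none of the 8 stress response genes was called higher. *Atf4* (chr15:80255184-80257541, plus strand, GRCm38) stood at 162, 161 and 170.2 CPM for vehicle, 163, 167 and 153 CPM for sErbB4, 120.1, 124 and 125 CPM for DAPT, and 129, 132 and 134 CPM for DAPT + sErbB4. All 6 libraries with DAPT were below all 6 without it, which 11.8% of all genes tested also showed. The means were 164 ± 5.01 CPM for vehicle and 123 ± 2.62 CPM for DAPT (n = 3 each), a log2 FC of -0.42 (SE 0.04, edgeR adjusted p = 2.7e-05). In the presence of sErbB4 the means were 161 ± 7.48 CPM without and 131 ± 2.29 CPM with DAPT (n = 3 each), and the log2 FC was -0.29 (SE 0.04, edgeR adjusted p = 0.00035), under the fold limit and so not called. The difference between these effects was 0.13 (SE 0.06, edgeR adjusted p of the interaction = 1.00), in a test that called 0.00639% of all genes.

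**Figure D1:**
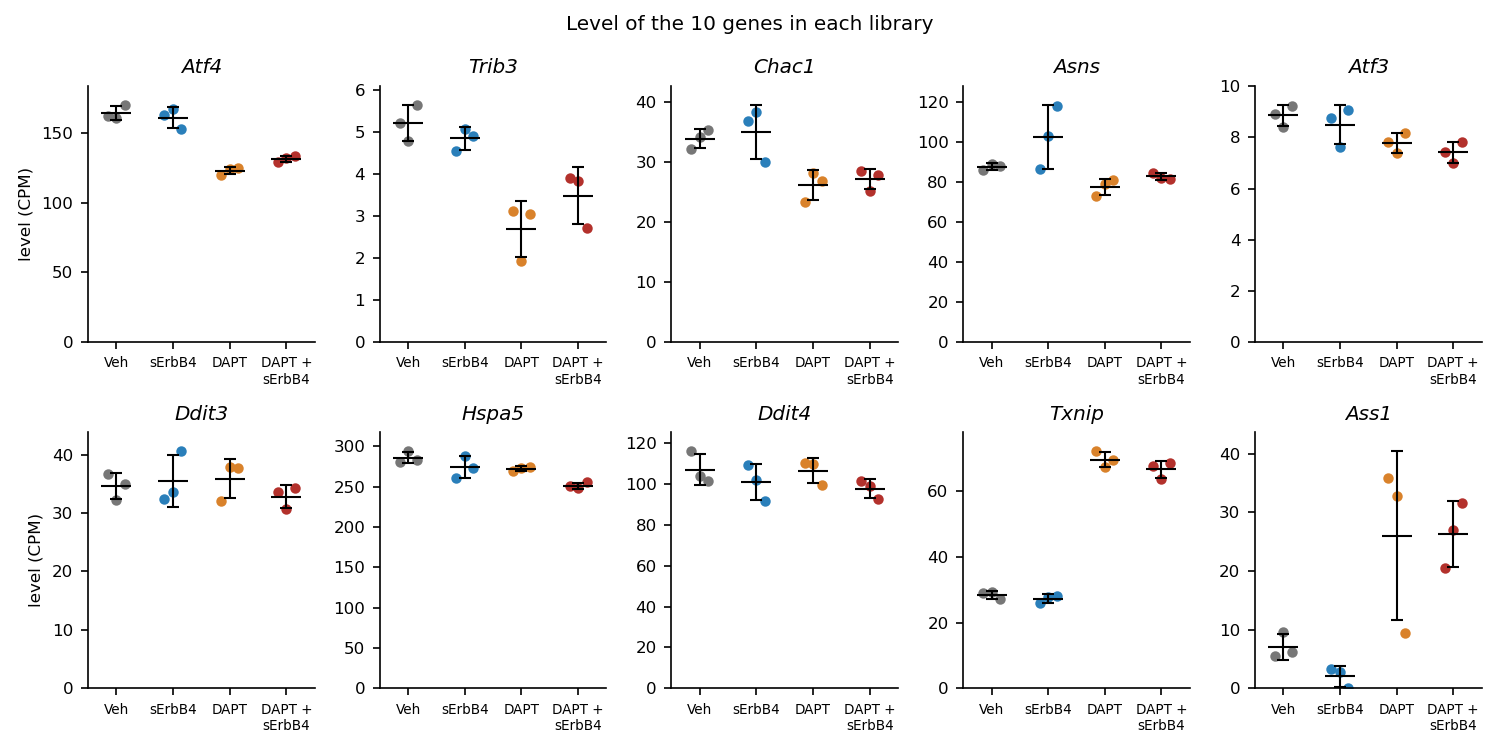
Level (CPM) of each of the 10 genes in the 12 libraries, with points for libraries, horizontal bars for group means and error bars for the SD of 3 libraries. For *Atf4*, *Trib3*, *Chac1* and *Asns* all libraries with DAPT lie below those without, as for 11.8% of all genes tested. For *Txnip* all lie above, as for 8.6% of all genes. For *Ass1* DAPT replicate 3 (9.47 CPM) falls within the vehicle range.

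*Trib3* (chr2:152337422-152344032, minus strand) encodes a pseudokinase that ATF4 and CHOP induce and that feeds back on them. It was a low gene, at 5.21, 4.78 and 5.64 CPM for vehicle, 4.55, 5.08 and 4.91 CPM for sErbB4, 3.12, 1.92 and 3.04 CPM for DAPT, and 3.91, 3.84 and 2.70 CPM for DAPT + sErbB4. Between 43 and 159 counts stood behind each of these values. The ranges with and without DAPT did not overlap, as in 11.8% of all genes tested in this direction. The log2 FC was -0.94 for DAPT against vehicle (SE 0.18, edgeR adjusted p = 0.0028) and -0.48 for DAPT + sErbB4 against sErbB4 (SE 0.17, edgeR adjusted p = 0.065), which did not pass. The latter passed with DESeq2 (-0.48, adjusted p = 0.046), with limma (-0.35, adjusted p = 0.033) and in the edgeR fit without DAPT replicate 2 (-0.48, adjusted p = 0.026). Over the 20 alternatives its adjusted p ranged from 0.026 to 0.21.

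*Chac1* (chr2:119351229-119354381, plus strand), an ATF4 target whose enzyme breaks down glutathione, stood at 32.2, 34.2 and 35.2 CPM for vehicle, 36.8, 38.3 and 29.9 CPM for sErbB4, 23.4, 28.1 and 26.8 CPM for DAPT, and 28.4, 25.2 and 27.8 CPM for DAPT + sErbB4. The lowest library without DAPT was sErbB4 replicate 3, at 29.9 CPM, and the highest with DAPT was at 28.4 CPM. It was called in both comparisons, with a log2 FC of -0.38 against vehicle (SE 0.09, edgeR adjusted p = 0.014) and of -0.37 against sErbB4 (SE 0.09, edgeR adjusted p = 0.013). Single libraries carried these calls. Without DAPT replicate 1 the first was -0.29 (edgeR adjusted p = 0.066). Without sErbB4 replicate 2 the second was -0.30 (adjusted p = 0.056), and without DAPT + sErbB4 replicate 2 it was -0.32 (edgeR adjusted p = 0.059).

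*Asns* (chr6:7675169-7693254, minus strand), the asparagine synthetase that ATF4 induces when amino acids are short, stood at 85.9, 89.1 and 88.1 CPM for vehicle and 72.8, 78.8 and 80.8 CPM for DAPT. In sErbB4 it was at 86.4, 103 and 118 CPM, a wider spread than in the other groups, and in DAPT + sErbB4 at 84.7, 82.0 and 81.7 CPM. All libraries with DAPT were again below all without, by a narrow gap (84.7 against 85.9 CPM), as in 11.8% of all genes tested. The log2 FC was -0.18 against vehicle (SE 0.09, edgeR adjusted p = 0.18) and -0.31 against sErbB4 (SE 0.09, edgeR adjusted p = 0.023), the latter under the fold limit. Without sErbB4 replicate 1 it was called, at -0.42 (edgeR adjusted p = 0.00072).

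*Atf3* and *Ddit3*, transcription factors that follow ATF4 in a strong stress response, were not called. *Atf3* (chr1:191170296-191218039, minus strand) stood at 8.86 ± 0.408 CPM for vehicle, 8.49 ± 0.765 CPM for sErbB4, 7.79 ± 0.397 CPM for DAPT and 7.42 ± 0.420 CPM for DAPT + sErbB4 (n = 3 each). Its average DAPT effect was -0.19 (SE 0.05, edgeR adjusted p = 0.018), too small for the fold limit, and the ranges with and without DAPT overlapped. *Ddit3* (chr10:127290829-127293753, plus strand) stood at 36.6, 32.3 and 35.0 CPM for vehicle, 32.4, 33.5 and 40.5 CPM for sErbB4, 31.97, 37.9 and 37.8 CPM for DAPT, and 33.6, 30.7 and 34.2 CPM for DAPT + sErbB4. These groups overlapped throughout. The 95% interval of its average DAPT effect ran from -0.17 to 0.11 on the log2 scale (edgeR adjusted p = 0.75), so a rise of the fold limit lies outside it.

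Over the 8 genes, 3 were called lower and 0 higher in DAPT against vehicle (*Atf4*, *Trib3* and *Chac1*), where 6.92% of all genes tested were called lower and 4.66% higher. In DAPT + sErbB4 against sErbB4, 1 was called lower (*Chac1*) and 0 higher, where 7.15% of all genes were called lower and 4.55% higher. The average DAPT effect called *Atf4* (-0.36, SE 0.03, adjusted p = 2.5e-06), *Trib3* (-0.71, SE 0.12, adjusted p = 0.00088) and *Chac1* (-0.37, SE 0.07, edgeR adjusted p = 0.00095), beside 7.7% of all genes lower and 5.54% higher. All 8 had a negative average effect, as did 48.1% of all genes, but *Ddit3* (0.04) and *Ddit4* (0.04) were positive without TMM factors and *Ddit4* with limma (0.015). The median was -0.22 beside 0.01 over all genes tested. Leaving out the TMM factors moved the median ratio of group means over all genes to 0.21 (log2) in DAPT against vehicle. On that scale *Asns* (0.02), *Atf3* (0.02) and *Hspa5* (0.13) were higher with DAPT and *Atf4* lower (-0.22), while relative to that median they were at -0.19, -0.19, -0.08 and -0.43. With limma on cyclic loess values, the scaling of the study's methods, *Atf4* was at -0.30 (adjusted p = 8.3e-06), just under the fold limit.

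**Figure D2:**
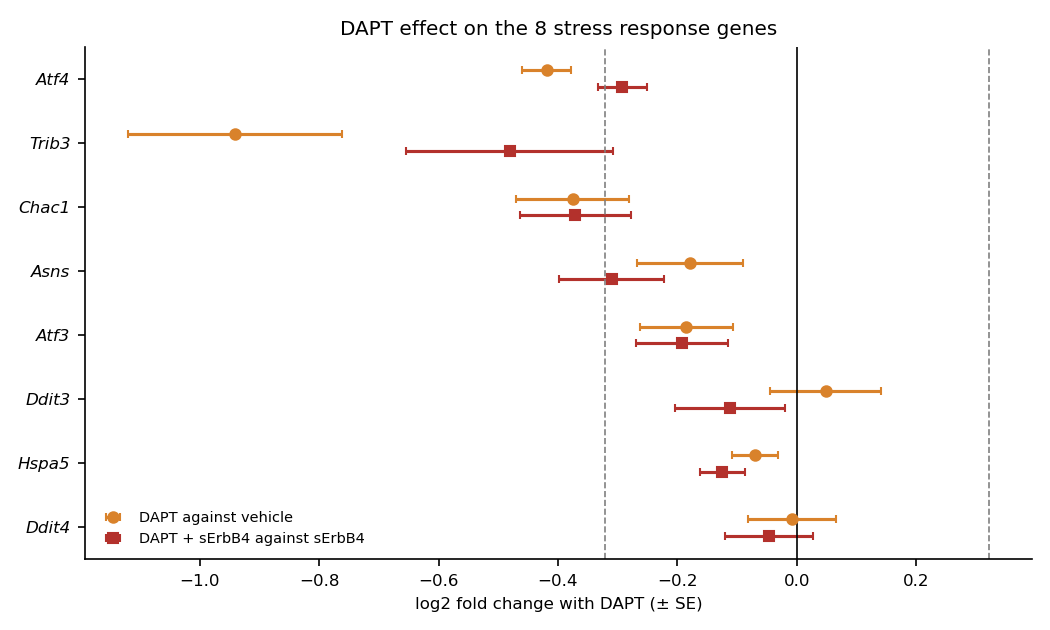
Log2 FC with DAPT for the 8 stress response genes, as circles for DAPT against vehicle and squares for DAPT + sErbB4 against sErbB4, with bars of 1 SE and dashed lines at the fold limit of 1.25. *Atf4*, *Trib3* and *Chac1* lie to the left of the limit in DAPT against vehicle, while *Ddit3*, *Hspa5* and *Ddit4* lie near 0.

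The decrease ran through the wider set of ATF4 target genes. Apart from the 10 genes themselves, 46 listed targets were tested, on lists chosen with earlier results of these data known. The average DAPT effect called 24 of them lower and 1 higher, where 7.7% of all genes tested were called lower and 5.54% higher. A negative log2 FC was found in 43, as in 48.1% of all genes, with a median of -0.33 beside 0.01 over all genes. In the separate comparisons 20 were called lower against vehicle and 26 against sErbB4, beside 6.92% and 7.15% of all genes. In 35 of the 46 all libraries with DAPT were below all without, as in 11.8% of all genes tested. The summed level of the listed targets was 3452 to 3566 CPM for vehicle, 3440 to 3879 CPM for sErbB4, 2611 to 2709 CPM for DAPT, and 2614 to 2656 CPM for DAPT + sErbB4, so the libraries with DAPT lay apart from those without. The gene called higher, picked out after its values were seen, was *Gls2*, a glutaminase also induced by p53, at 1.87 ± 0.164 CPM for vehicle and 2.72 ± 0.219 CPM for DAPT (n = 3 each; average effect 0.60, SE 0.10, edgeR adjusted p = 0.00065).

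Of 11 genes of amino acid synthesis and one-carbon metabolism 7 were called lower and 1 higher in the average DAPT effect (median log2 FC -0.48), beside 7.7% and 5.54% of all genes. *Cth*, the enzyme that releases cysteine from cystathionine, stood at 16.6 ± 0.855 CPM for vehicle, 18.7 ± 1.502 CPM for sErbB4, 7.58 ± 0.847 CPM for DAPT and 7.63 ± 0.0734 CPM for DAPT + sErbB4 (n = 3 each), an average effect of -1.21 (SE 0.06, edgeR adjusted p = 3.6e-08). *Pycr1*, of proline synthesis, fell from 10.1 ± 0.462 CPM for vehicle to 5.88 ± 0.258 CPM for DAPT (n = 3 each), with an average effect of -0.87 (SE 0.08, edgeR adjusted p = 6.3e-06). The serine synthesis genes that share ATF4 control with *Asns* also fell. *Phgdh* was at 227 ± 12.4 CPM for vehicle and 167 ± 5.90 CPM for DAPT, and *Psat1* at 263 ± 5.96 and 185 ± 2.98 CPM (n = 3 each). Their average effects were -0.48 (SE 0.04, adjusted p = 3.4e-06) and -0.49 (SE 0.03, edgeR adjusted p = 2.4e-07).

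Of 9 amino acid transporters, 5 were called lower and 0 higher (median -0.33), beside 7.7% and 5.54% of all genes. *Slc7a5*, the large neutral amino acid carrier, went from 291 ± 7.85 CPM for vehicle and 313 ± 48.5 CPM for sErbB4 to 167 ± 6.63 CPM for DAPT and 166 ± 4.28 CPM for DAPT + sErbB4 (n = 3 each), an average effect of -0.86 (SE 0.06, edgeR adjusted p = 7.5e-07). The glycine carrier *Slc6a9* had one of -0.73 (SE 0.04, edgeR adjusted p = 9.0e-08). *Slc7a11*, the cystine carrier whose window holds a pair of CARE sites, was not called (-0.18, SE 0.07, edgeR adjusted p = 0.080).

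Of 12 tRNA synthetases, 4 were called lower in the average effect (median -0.30), beside 7.7% of all genes. A negative log2 FC was found in 12, beside 48.1% of all genes, in a narrow range from -0.47 to -0.17. *Mars1* was at -0.47 (SE 0.04, adjusted p = 5.6e-06) and *Lars* at -0.44 (SE 0.03, edgeR adjusted p = 1.1e-06). Of 14 regulators and secreted factors downstream of ATF4 and CHOP, 8 were called lower (median -0.36), beside the same 7.7% of all genes. Among them were *Eif4ebp1*, a repressor of cap-dependent translation, at -0.66 (SE 0.05, adjusted p = 7.5e-07), the stress protein gene *Nupr1* at -0.56 (SE 0.12, adjusted p = 0.0033), and *Sesn2*, a leucine sensor upstream of mTORC1, at -0.47 (SE 0.04, edgeR adjusted p = 3.3e-06). The largest decrease on these lists, noted after the values were seen, was that of *Gdf15*, a secreted stress cytokine, at 6.61 ± 1.07 CPM for vehicle, 8.34 ± 1.71 CPM for sErbB4, 2.50 ± 0.360 CPM for DAPT and 1.99 ± 0.350 CPM for DAPT + sErbB4 (n = 3 each). A CARE site in the window did not mark all genes that fell. Of the listed targets tested, 6 of 8 with a site and 13 of 26 without one were called lower, and the difference was not tested.

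**Figure D3:**
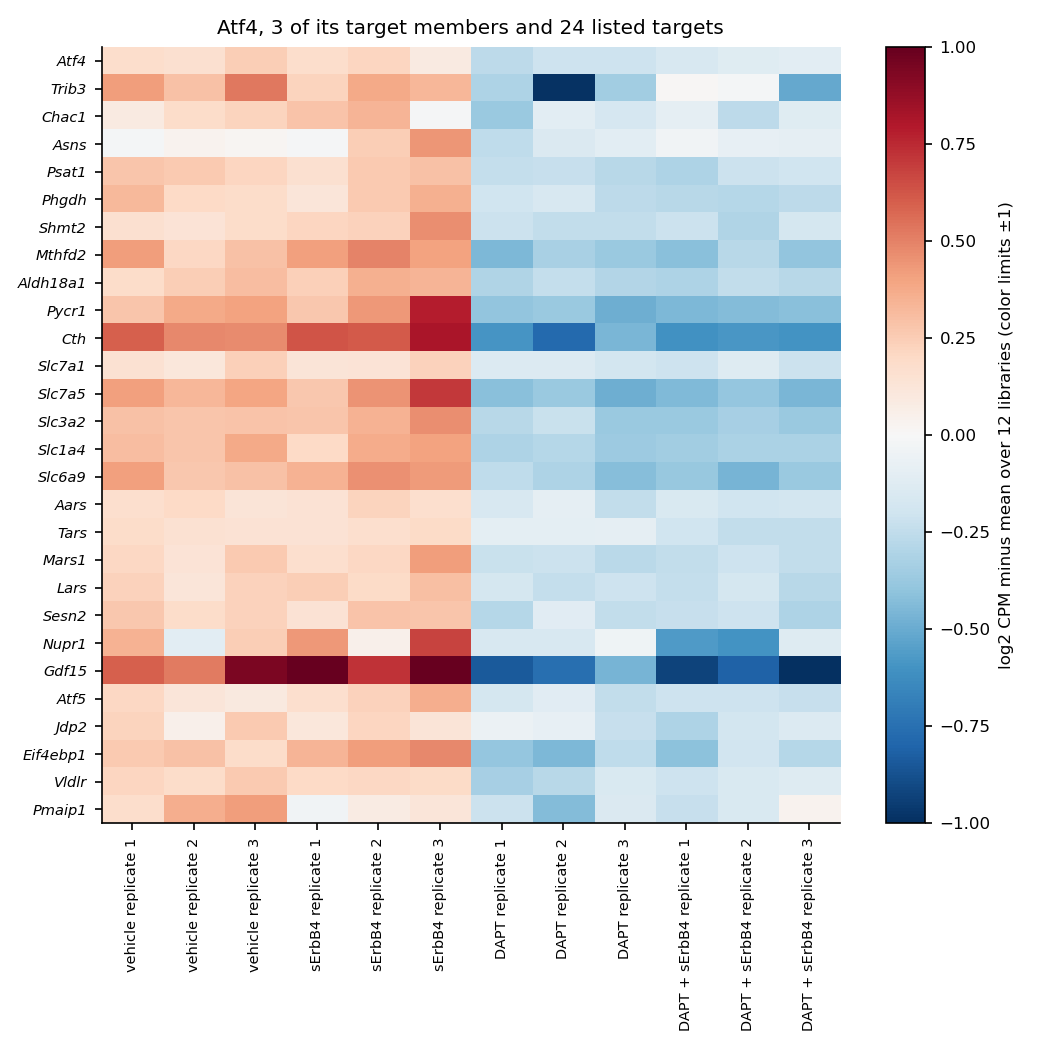
Log2 CPM minus the mean over the 12 libraries (columns) for *Atf4*, *Trib3*, *Chac1*, *Asns* and the 24 listed ATF4 targets called lower in the average DAPT effect (rows), red above and blue below the mean, with colors cut at 1 in either direction. As the targets were picked for that call the split of the columns is no test, and the picture shows how even it is within groups, with *Nupr1* and *Trib3* the more variable rows.

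Cell type markers moved with the same comparison and are given beside these decreases. Their calls are from the average DAPT effect, which called 7.7% of all genes tested lower and 5.54% higher. Of 6 markers of cycling cells 6 were called lower, and their summed level was 54.3 to 66.0 CPM in the libraries without DAPT and 20.7 to 25.8 CPM in those with it. Of 6 markers of oligodendrocyte precursors 4 were called lower (summed level 999 to 1084 against 521 to 595 CPM), and of 7 of radial glia and neural stem cells 3 were called lower and 1 higher (3781 to 4448 against 1978 to 2289 CPM). These 7 went both ways, with a median log2 FC of 0.05 and a range from -1.90 to 1.01, so their sum does not describe them as a set. Of 9 neuronal markers 3 were called higher and 0 lower (1280 to 1543 against 1491 to 1724 CPM), and of 9 astrocyte markers 1 was higher and 3 lower, with overlapping sums (5999 to 7062 against 6596 to 7388 CPM). Of 9 markers of pericytes, smooth muscle and fibroblasts 5 were called lower and 2 higher, and their sums did not overlap either (130.0 to 148 against 103 to 124 CPM). These markers also went both ways, with log2 FC from -1.17 to 0.60, so their sum does not describe them as a set. *Cspg4* is on this list and on that of oligodendrocyte precursors. Endothelial markers summed to 4.59 to 7.01 CPM in all libraries. The part of these shifts in the decrease of the ATF4 targets was not tested. In bulk RNA, fewer cells of a type and less RNA per cell cannot be told apart.

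**Figure D4:**
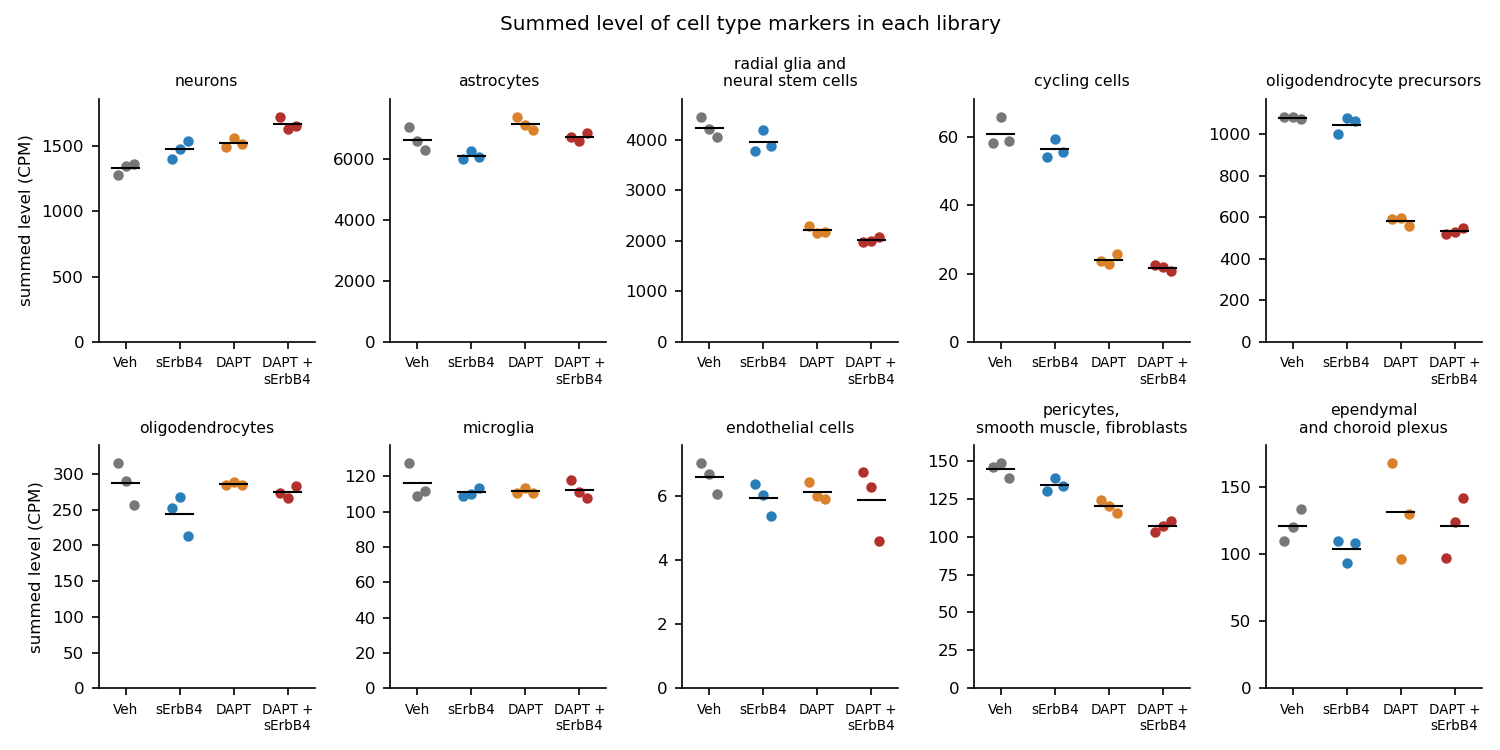
Summed level (CPM) of the markers of 10 cell types in each library, with points for libraries and bars for group means. The sums for cycling cells (54.3 to 66.0 against 20.7 to 25.8 CPM), oligodendrocyte precursors, radial glia, and pericytes, smooth muscle and fibroblasts (130.0 to 148 against 103 to 124 CPM) separate libraries without and with DAPT, while those for microglia and oligodendrocytes overlap. Single radial glia markers went both ways, with 3 of 7 called lower and 1 higher, as did those of pericytes, smooth muscle and fibroblasts, with 5 of 9 lower and 2 higher.

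The kinases and phosphatase that set eIF2α phosphorylation were called at the share of all genes. Of 13 genes for eIF2 kinases, phosphatase subunits, eIF2 and eIF2B, 1 was called lower and 0 higher in the average DAPT effect (median -0.07), where 7.7% of all genes were called lower, and the difference from the targets was not tested. *Eif2ak3* (PERK) was at 15.6 ± 0.657 CPM for vehicle and 15.98 ± 0.715 CPM for DAPT (n = 3 each), with an average effect of 0.00 (SE 0.03, adjusted p = 0.98), and *Eif2ak4* (GCN2) had one of 0.04 (SE 0.06, edgeR adjusted p = 0.67). The gene called was *Eif2ak2*, the double-stranded RNA-activated kinase PKR, which went from 17.2 ± 0.815 CPM for vehicle to 12.8 ± 0.405 CPM for DAPT (n = 3 each), an average effect of -0.49 (SE 0.04, edgeR adjusted p = 8.0e-07). *Ppp1r15a*, the stress-induced subunit that directs dephosphorylation of eIF2α and an ATF4 target itself, had an average effect of 0.18 (SE 0.04, edgeR adjusted p = 0.0082), against the direction of most other listed targets and under the fold limit.

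*Hspa5* and the ER chaperone genes had small differences with DAPT, and few were called. *Hspa5* (chr2:34771970-34777547, plus strand) stood at 281, 293 and 283 CPM for vehicle, 260.3, 288 and 273 CPM for sErbB4, 269, 273 and 274 CPM for DAPT, and 250.1, 248 and 255 CPM for DAPT + sErbB4. The DAPT libraries lay below all vehicle libraries (at most 274 against at least 281 CPM), which 21.1% of all genes tested also showed, but within the range of the sErbB4 libraries. The DAPT + sErbB4 libraries lay below every other library, and how many of all genes showed this split was not counted. The log2 FC was -0.07 against vehicle (95% interval -0.15 to 0.01, edgeR adjusted p = 0.22) and -0.12 against sErbB4 (SE 0.04, edgeR adjusted p = 0.034), neither reaching the fold limit. The average DAPT effect was -0.10 (SE 0.03, edgeR adjusted p = 0.014), again under it. With limma on cyclic loess values the first turned to 0.01 (adjusted p = 0.90).

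Of 25 listed ER chaperone and ER stress sensor genes, 0 were called lower and 1 higher in the average DAPT effect, beside 7.7% and 5.54% of all genes. The median was 0.01, the same as over all genes to 2 decimals, and at most 1 was called in each separate comparison. *Hsp90b1*, the ER chaperone GRP94, had an average effect of -0.10 (SE 0.03, adjusted p = 0.040), *Dnajb9*, an XBP1-induced co-chaperone of BiP, one of 0.13 (SE 0.05, adjusted p = 0.051), *Herpud1*, of ER-associated degradation, one of 0.15 (SE 0.06, adjusted p = 0.094), and *Xbp1* one of 0.18 (SE 0.04, edgeR adjusted p = 0.0023). None of these reached the fold limit, nor did *P4hb*, a protein disulfide isomerase, whose effect was the lowest of the list (-0.23, SE 0.03, edgeR adjusted p = 0.00012). The gene called, named after its values were seen, was *Derl3*, of ER-associated degradation, at 0.752 ± 0.177 CPM for vehicle and 0.954 ± 0.522 CPM for DAPT (n = 3 each), and the call was lost under 15 of 19 alternatives, among them 11 of the 12 fits without 1 library. The summed level of the list was 2220 to 2400.1 CPM in the libraries without DAPT and 2211 to 2340.3 CPM in those with it.

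**Figure D5:**
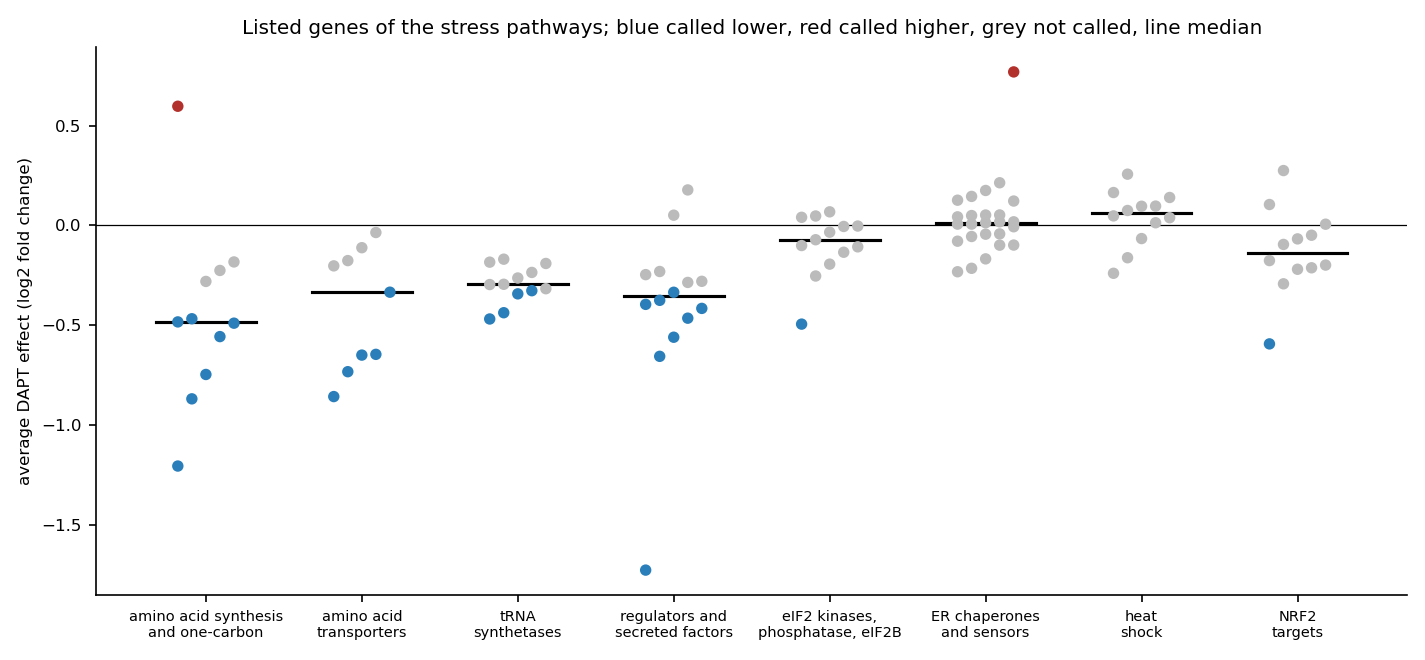
Average DAPT effect (log2 FC) of each tested gene on 8 stress pathway lists, the 10 members excluded, with blue for called lower, red for called higher, grey for not called and a line for the median. The 4 ATF4 target lists have medians from -0.48 to -0.30, the ER chaperone list one of 0.01.

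Heat shock and oxidative stress genes had few calls and p53 targets more, where the average DAPT effect called 7.7% of all genes tested lower and 5.54% higher. Of 12 cytosolic and mitochondrial heat shock genes 0 were called (median 0.06), and the largest effect was that of *Hspa1a*, the inducible HSP70 (0.26, SE 0.05, edgeR adjusted p = 0.0026). Of 12 NRF2 targets of the oxidative stress response 1 was called lower, *Hmox1*, which degrades heme, from 661 ± 24.01 CPM for vehicle to 471 ± 17.7 CPM for DAPT (n = 3 each; average effect -0.59, SE 0.06, edgeR adjusted p = 2.3e-05). The summed level of the NRF2 list was 1969 to 2319 CPM without DAPT and 1827 to 1946 CPM with it. In 5 of its genes all libraries with DAPT were below all without, and in 1 all were above, beside 11.8% and 8.6% of all genes. Of 15 p53 targets 6 were called lower and 1 higher (median -0.11), beside the 7.7% and 5.54% of all genes, and their summed level was 659 to 713 CPM in the libraries without DAPT and 593 to 601 CPM in those with it. *Gdf15* and *Sesn2* count here too, and the gene called higher was *Sesn1*, a relative of *Sesn2* (0.54, SE 0.05, edgeR adjusted p = 8.7e-06).

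*Ddit4* (chr10:59949669-59951834, minus strand) encodes REDD1, an inhibitor of mTORC1 that ATF4, hypoxia and glucocorticoids induce. It stood at 116, 104 and 101 CPM for vehicle, 109, 102 and 91.6 CPM for sErbB4, 110.5, 110.0 and 99.4 CPM for DAPT, and 102, 99.0 and 92.6 CPM for DAPT + sErbB4. All groups overlapped, and the 95% interval of its average DAPT effect ran from -0.14 to 0.09 (edgeR adjusted p = 0.73). Of 8 genes of mTORC1 and the Tsc complex, on which REDD1 acts, 0 were called (median 0.01), with *Tsc1* the farthest from 0 (0.16, SE 0.04, edgeR adjusted p = 0.010). Of 14 glucocorticoid- and FoxO-induced genes 1 was called higher, where 5.54% of all genes tested were called higher. It was *Sesn3* (54.2 ± 2.82 CPM for vehicle, 78.6 ± 1.54 CPM for DAPT, n = 3 each; average effect 0.48, SE 0.03, edgeR adjusted p = 6.1e-07). The glucocorticoid receptor targets *Fkbp5* (-0.24, SE 0.03, adjusted p = 0.00023) and *Sgk1* (0.06, SE 0.04, edgeR adjusted p = 0.35) were not called.

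*Txnip* (chr3:96557957-96561883, plus strand) encodes an α-arrestin that binds thioredoxin and lowers glucose uptake. It stood at 29.0, 29.3 and 27.0 CPM for vehicle, 25.8, 27.9 and 28.2 CPM for sErbB4, 72.0, 67.3 and 69.3 CPM for DAPT, and 67.7, 63.5 and 68.5 CPM for DAPT + sErbB4. The lowest library with DAPT was more than 30 CPM above the highest without it, a separation in this direction that 8.6% of all genes tested also showed. Within the libraries with DAPT, and within those without, the groups overlapped. The log2 FC was 1.29 against vehicle and 1.29 against sErbB4, and over the alternative fits these ranged from 1.24 to 1.32. The ratios of group means without TMM factors were 1.49 and 1.22 (log2). As the gene was chosen for this difference, no test is given.

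The antisense gene *Gm15441*, named for this reason alone, shares 606 exonic bases with *Txnip* on the opposite strand. Its group means ranged from 0.0261 to 0.126 CPM, and how strand was handled in counting is not given in the sources used here, so reads of the pair cannot be told apart. Among 15 α-arrestin, thioredoxin and glucose-sensing genes related to *Txnip*, 3 were called higher and 2 lower in the average DAPT effect (median 0.04), beside 5.54% and 7.7% of all genes. *Arrdc3*, another α-arrestin, rose from 29.5 ± 1.17 CPM for vehicle to 41.4 ± 1.00 CPM for DAPT (n = 3 each; average effect 0.49, SE 0.04, edgeR adjusted p = 2.5e-06). *Arrdc4*, which glucose and MondoA induce together with *Txnip* in other cells, had an average effect of -0.05 (SE 0.05, adjusted p = 0.46), and *Txn1*, the thioredoxin that TXNIP binds, one of -0.07 (SE 0.03, edgeR adjusted p = 0.13). *Hk2*, a hexokinase, fell (-0.64, SE 0.04, edgeR adjusted p = 6.6e-07).

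*Ass1* (chr2:31470207-31520672, plus strand), which makes argininosuccinate from citrulline and aspartate and so recycles arginine, stood at 5.52, 9.55 and 6.14 CPM for vehicle and 35.8, 32.7 and 9.47 CPM for DAPT. In sErbB4 it was at 3.26, 2.75 and 0.0409 CPM, the last value being 1 count, and in DAPT + sErbB4 at 20.4, 27.0 and 31.5 CPM. Except for DAPT replicate 3, the libraries with DAPT were above all without. That one lay just under the highest vehicle library. The groups DAPT and vehicle therefore overlapped. The log2 FC was 1.89 against vehicle (SE 0.53) and 3.67 against sErbB4 (SE 0.62), given as a description with no test. Leaving out DAPT replicate 3 moved the first to 2.32. *Ass1* varied far more between libraries of a group than the other 9 genes, with an SD of 14.4 CPM around a mean of 26.0 CPM for DAPT (n = 3). That DAPT library was not an outlier for *Txnip* (69.3 CPM beside 72.0 and 67.3 CPM).

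Of the other genes of arginine metabolism more fell than rose with DAPT. Of 10 tested, 5 were called lower and 1 higher in the average DAPT effect (median -0.29), beside 7.7% and 5.54% of all genes. *Asl*, which splits argininosuccinate and so follows ASS1 in the pathway, went from 14.4 ± 0.937 CPM for vehicle to 18.0 ± 0.718 CPM for DAPT (n = 3 each), an average effect of 0.29 (SE 0.04, edgeR adjusted p = 0.00018) under the fold limit. *Arg2*, the mitochondrial arginase, was the gene called higher, at 4.23 ± 0.974 CPM for vehicle and 4.96 ± 0.0467 CPM for DAPT (n = 3 each; average effect 0.33, SE 0.10, edgeR adjusted p = 0.024), and that call was lost under 4 of 19 alternatives. *Gatm*, of creatine synthesis, was at -0.63 (SE 0.04, adjusted p = 3.5e-07) and *Ddah1*, which degrades methylated arginine, at -0.57 (SE 0.03, edgeR adjusted p = 2.2e-07). *Nos1*, the neuronal nitric oxide synthase that uses arginine, had an average effect of -0.06 (SE 0.07, edgeR adjusted p = 0.58).

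sErbB4 itself changed none of the 10 genes past the test. In sErbB4 against vehicle 0.0319% of all genes were called (5 genes), and in DAPT + sErbB4 against DAPT 0% (0 genes by edgeR, 8 by DESeq2, with 1442 at an unadjusted p under 0.05). Without DAPT, *Ass1* was at 7.07 ± 2.17 CPM for vehicle and 2.02 ± 1.73 CPM for sErbB4 (n = 3 each), groups that did not overlap, as 5.27% of all genes tested did not in this direction, with a log2 FC of -1.74 (SE 0.72, edgeR adjusted p = 0.63). Without sErbB4 replicate 3, the library with 1 count, it was -1.21. *Asns* had a log2 FC of 0.23 (SE 0.09, edgeR adjusted p = 0.61), which went from 0.11 without sErbB4 replicate 3 to 0.34 without sErbB4 replicate 1. With DAPT present, the log2 FC was 0.10 for *Atf4* (SE 0.04, adjusted p = 0.52), -0.12 for *Hspa5* (SE 0.04, adjusted p = 0.40) and 0.35 for *Trib3* (SE 0.18, edgeR adjusted p = 0.60). The intervals of *Txnip* were narrow, from -0.18 to 0.06 without DAPT and from -0.17 to 0.04 with it (95%, log2 scale). *Ass1* and *Txnip* were chosen by their DAPT values in these same libraries. Their sErbB4 values, tests and intervals share libraries with that choice and are not independent of it.

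Genes whose log2 CPM ran most like that of a member over the 12 libraries were found by Pearson correlation, given as a description, since all libraries share the treatment groups and their depth. For *Txnip* these were *Padi2* (r = 0.995), *Cpe* (r = 0.995) and *Ptgds* (r = 0.992), which had average DAPT effects of 1.65, 0.41 and 1.39. For *Ass1* they were *Fbln7* (r = 0.932), *Id3* (r = 0.930) and *Cd109* (r = 0.925), with smaller effects of 0.19, 0.22 and 0.32. For *Chac1* they were *Zfp428* (r = 0.942), *Mrpl51* (r = 0.926) and *Git2* (r = 0.921), and for *Trib3* they were *Tpd52l1* (r = 0.962), *Atg3* (r = 0.934) and *Etf1* (r = 0.930). None of these 12 genes is on the ATF4 target lists, nor is any on the arginine or α-arrestin lists.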

How the data were processed

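RNA from 12 hippocampal cultures, 3 per group, was sequenced as poly-A selected paired-end libraries. According to the study's methods and the submitters' processing notes, the authors trimmed reads (Trimmomatic), aligned them to mm10 (HISAT2), assembled transcripts (StringTie) and took gene values with IsoformSwitchAnalyzeR; versions are not given in the sources used here. What the authors deposited are estimated counts for each gene without normalization between libraries, which were rounded to whole numbers here. Of 21312 loci, 1976 without a gene name (43.4 to 51.8% of a library's counts) were left out. Counts were filtered (filterByExpr), scaled by TMM and tested with edgeR 4.0.16 (quasi-likelihood F test, R 4.3.3) in 1 model with a mean per group and 8 residual degrees of freedom, and p-values were adjusted over all genes (Benjamini-Hochberg). Reads are not independent molecules, so the 3-count floor covers counting error only. The scripts were tested on simulated data. Libraries with the same replicate number were not treated as paired: over 18 such pairs, deviations correlated at -0.669 to 0.599, 8 over 0.1. The study's cultures came from several litters, and the labels do not link replicate numbers to litters. So wide a range cannot settle whether the libraries were paired.

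The members and gene lists were chosen with earlier results of these data known. Besides the members and chosen partner genes, each list contributed by rule its largest called average DAPT effects among genes over 5 CPM (2, or 1 where none was called), and 3 alike genes were named for 4 members. Alternatives were DESeq2 1.42.0, limma 3.58.1 on cyclic loess values of log2(CPM + 2), other scaling, no filter, the libraries compared alone, unnamed loci kept, *Rn45s* left out, replicate number as a block, and each library left out in turn. Positions are from GENCODE M21 and windows from RefSeq.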

Additional observations from a re-analysis of the deposited data

Results flagged for a closer look

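*Trib3* had a lower mean with sErbB4 than with vehicle in the absence of DAPT, all 3 sErbB4 libraries lying below the vehicle mean. Its mean was higher with DAPT + sErbB4 than with DAPT, all 3 libraries lying above the DAPT mean. The groups overlapped in both comparisons. sErbB4 replicate 2 (5.08 CPM) was above vehicle replicate 2 (4.78 CPM). DAPT + sErbB4 replicate 3 (2.70 CPM) was barely above the DAPT mean (2.69 CPM) and below DAPT replicates 1 and 3 (3.12 and 3.04 CPM). The 2 sErbB4 effects differed by 1.16 CPM, which is why it is listed here. The difference itself was tested by the interaction, which gave a log2 difference of 0.46 (SE 0.25, adjusted p = 1.00, edgeR), so it was not called, and its adjusted p ranged from 0.88 to 1 over 19 alternatives. It went from 0.28 without DAPT replicate 2, the lowest library of the gene (1.92 CPM), to 0.60 without DAPT + sErbB4 replicate 3.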

How the results depend on the processing

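Leaving out each library in turn kept 3 of the 8 stress response genes called lower in the average DAPT effect, 2 to 3 in DAPT against vehicle and 0 to 2 in DAPT + sErbB4 against sErbB4, where DESeq2 and limma each called 2 (1 with all libraries). The ATF4 targets called lower kept within 21 to 25 for the average effect (24 with all), 18 to 23 against vehicle (20) and 24 to 29 against sErbB4 (26). The ER chaperone call, 1 in the average effect and against sErbB4, became 0 without the filter, with DESeq2, limma or the replicate block, against sErbB4 also with unnamed loci kept, and was 0 in 11 (average) and 10 (against sErbB4) of the 12 fits without 1 library (range 0 to 1). Over all genes, limma called 1375 in the average effect (2072 with edgeR). In sErbB4 against vehicle (5 genes) DESeq2 called 18, the libraries compared alone 0, the replicate block 2, and libraries left out 1 to 5. In DAPT + sErbB4 against DAPT (0 genes) DESeq2 called 8, the libraries compared alone 2, and libraries left out 0 to 2, and in the interaction (1 gene) DESeq2 called 4 and libraries left out 1 to 3. The replicate block left the 1813 genes called against vehicle at 1750 and changed no call of a member.

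Under these fitted alternatives signs turned only where log2 effects were near 0 or *Ass1* was uneven, and the cause was not tested. *Ddit4* against vehicle was 0.045 with limma, 0.013 with unnamed loci kept, 0.0055 without *Rn45s* and -0.048 to 0.056 over libraries left out. Its average effect was 0.015 with limma and -0.060 to 0.0037 over libraries left out, and against sErbB4 it ranged from -0.11 to 0.014. *Hspa5* against vehicle was 0.0066 with limma. The average effect of *Eif2ak3* was 0.0046 with unnamed loci kept, 0.0018 without *Rn45s* and -0.018 to 0.013 over libraries left out, that of *Eif2ak4* -0.0090 to 0.10 and that of *Ddit3* -0.061 to 0.020. In sErbB4 against vehicle the ranges were -0.061 to 0.0052 for *Atf4*, -0.12 to 0.0074 for *Atf3*, -0.073 to 0.091 for *Ddit3* and -0.022 to 0.15 for *Chac1*. In DAPT + sErbB4 against DAPT they were -0.027 to 0.11 for *Chac1* and -0.39 to 0.35 for *Ass1*. Depth limits low genes such as *Trib3*, *Derl3* and, in sErbB4, *Ass1*. Without TMM factors, 16 of the 40 group means of the 10 genes moved by more than their SD, with *Atf4* at 154 CPM for vehicle and 132 CPM for DAPT.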
